A study of Mus musculus with 8 samples.

Results

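Regulators of multiciliated cells were examined in RNA-seq libraries of mouse adipose-derived stem cells (ADSCs), a stromal cell preparation from fat, grown as flat cultures (2D) or embedded in gel (3D). The group holds 10 genes of the 24346 listed in each library: Gmnc, Mcidas, Trp73, Myb, Ccno, Deup1, Foxj1, Rfx2, Rfx3 and Foxn4. They were chosen by gene symbol for their known roles, with earlier results of these libraries in view, so their 2D and 3D values are given as a description without a test, and no member is given a p-value. Of the 10 genes, 9 were listed under their current symbol and Deup1 under its older symbol Ccdc67. Gmnc and Foxn4 were listed at 0 in all 8 libraries, and the other 8 genes were above 0 in at least 1 library.

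The primary cultures came from gonadal fat of 12-week-old male BALB/c mice of wild-type (WT) genotype. The 2D group had 4 libraries, from mice 2, 3, 4 and 5, and the 3D group had 4 libraries, from mice 1, 4, 5 and 7, so both culture types were sequenced from mice 4 and 5. The 3D cultures grew in Matrigel, a basement membrane gel, and the study compared several media, with or without medium conditioned by cells that secrete Wnt3a or R-Spondin1, which activate Wnt signalling. The medium given to each sequenced culture is not stated, so differences due to gel and to medium cannot be told apart. In the paper, cells in a control medium with serum lay singly, whereas those in the 3D media formed organoids.

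Multiciliated cells, found in the airway, the brain ventricles, the oviduct and the efferent ducts, carry many motile cilia, each on its own basal body. The geminin relatives Gmnc and Mcidas start the program together with E2F factors, Ccno and Deup1 take part in making many centrioles in a single cell, and Foxj1 with the RFX factors Rfx2 and Rfx3 switches on genes of the motile axoneme. Foxj1 and the RFX factors also serve cells with a single motile cilium, and RFX factors serve primary cilia, the kind carried by most stromal cells.

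Levels differed widely among the members. Foxj1, Rfx2 and Rfx3, which act on the genes of cilium motility, were at means of 200.4 ± 108, 6.67 ± 2.97 and 7.92 ± 5.36 normalized FPKM in 3D (SD, n = 4), against 0.129 ± 0.0903, 0.198 ± 0.0902 and 1.25 ± 0.199 in 2D. FPKM is fragments per kilobase of transcript, scaled to the mapped fragments of the library, here quantile normalized over the 8 libraries. Gmnc and Mcidas, which start the program, were at or near 0 in both culture types, and the centriole regulators Ccno and Deup1 had overlapping groups. Myb was at 0 in 2D and low in 3D. Of the 8 members above 0 in some library, 4 (Foxj1, Rfx2, Rfx3, Myb) had every 3D library above every 2D library. So had 21.6% of the 18862 genes above 0 in some library, and 42.5% of those genes had groups that did not overlap in either direction. In a limma fit over the same genes, which was run for the other gene lists, 41.5% passed an adjusted p of 0.05, 21.2% as higher and 20.3% as lower in 3D. Those passing included the same 4 members, and nothing is read from that count, since the members were chosen with this contrast in view. In bulk RNA, fewer cells of a type and less RNA per cell cannot be told apart.

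**Figure D1:**
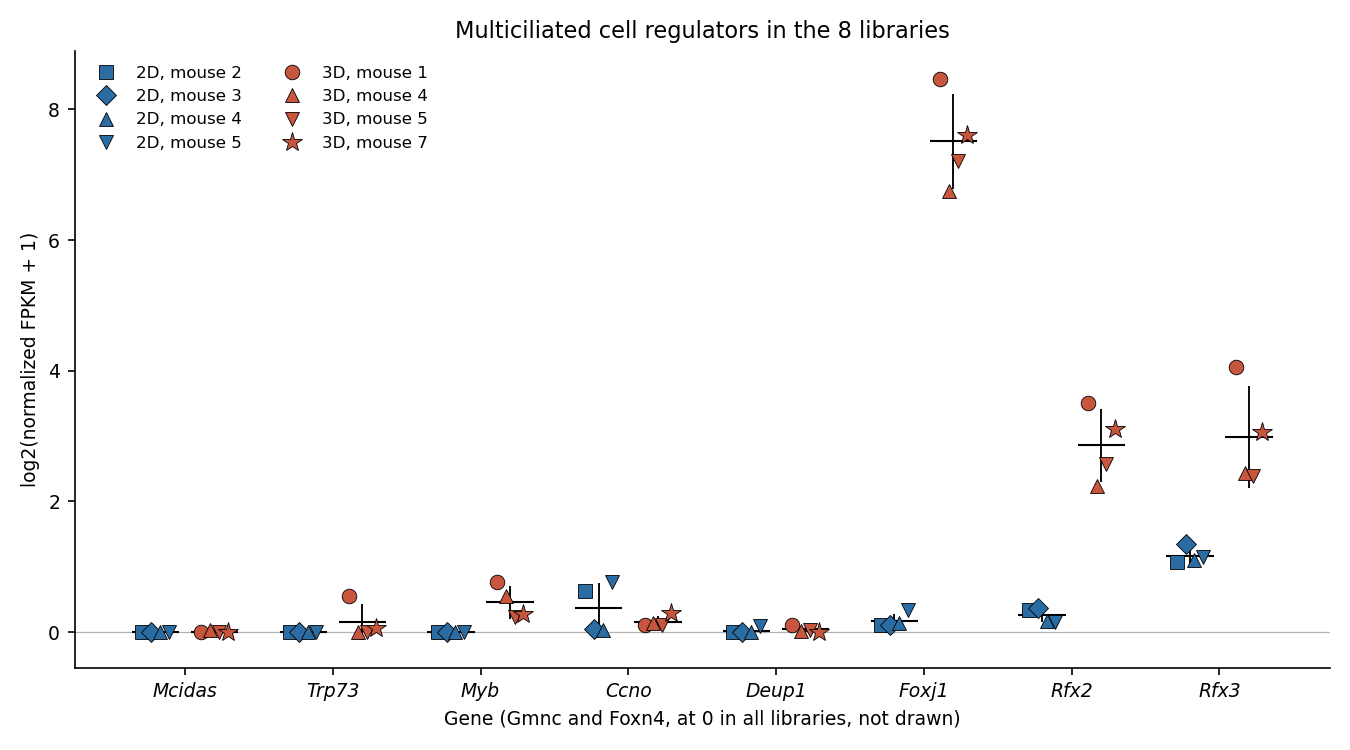
Level of 8 regulators in each library as log2(normalized FPKM + 1), with 2D libraries in blue, 3D libraries in red, a marker shape for each mouse, and the mean and SD of each group (n = 4) as a cross. Foxj1, Rfx2 and Rfx3 have every 3D library above every 2D library, and Gmnc and Foxn4, at 0 in all 8 libraries, are not drawn.

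Sequencing depth, recovered from the steps between low FPKM values, was estimated at 15.95 to 17.45 M fragments in 2D and 14.3 to 16.05 M in 3D. On a transcript of 1 kb, 3 fragments would correspond to 0.172 to 0.210 deposited FPKM over the 8 libraries. Estimated fragment numbers and floors cover counting error only.

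Some libraries stood apart from the others of their group. The 3D library of mouse 1, whose description is worded unlike those of the other 3D libraries, had 131 normalized FPKM of Trp63, against 0.266 to 7.01 in the other 3D libraries. It also had 58.6 of Ly6a, the gene of the stem cell antigen Sca-1, against 1429 to 3117. The 2D libraries of mice 3 and 4 carried mesothelial transcripts: a list of 8 mesothelial markers, 7 of them listed in the libraries, summed to 854 and 2148 normalized FPKM there, with Upk1b the most abundant in mouse 3 and Msln in mouse 4. That sum was 1.99 and 0.569 in the 2D libraries of mice 2 and 5 and 2.57, 34.0, 5.84 and 6.24 in the 3D libraries of mice 1, 4, 5 and 7. Of the 7 genes 0 passed in limma, and 0 had an unadjusted p under 0.05. Upk1b passed as lower in 3D without the 2D library of mouse 5 (adjusted p = 0.0347) and with a pseudocount of 0.1 (0.0375). With the 2D libraries of mice 3 and 4 left out Lrrn4 passed as higher in 3D (0.0488), and with the 3D library of mouse 1 left out as well Msln did (0.0298). That call on Lrrn4 rested on values near 0, at 0 in 2D mice 2 and 5 and 0.0417 to 0.0781 in 3D. Its log2 difference there was 0.08. The part of these cells in the results was not tested.

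The cultures are labelled as mesenchymal stem cells, and the 2D libraries carried the markers of such cells. The 10 mesenchymal markers summed to 2525, 2032, 1757 and 3611 normalized FPKM in 2D mice 2, 3, 4 and 5, with Col1a2 the most abundant of them in each. In 3D the sums were 152 in mouse 1, 1519 in mouse 4, 2588 in mouse 5 and 3180 in mouse 7, with Cd44 the most abundant in mouse 1 and Ly6a in the others. The defining fibrillar collagens and surface markers Col1a1, Col1a2, Col3a1, Thy1 and Pdgfrb were at or near 0 in the 3D libraries. Of the 10 genes, 7 fell, Ly6a rose, and Cd44 and Nt5e did not pass in limma. The call on Ly6a (adjusted p = 0.0432), whose groups overlapped, was lost without the 2D library of mouse 2, 3 or 5 or the 3D library of mouse 4, 5 or 7, with adjusted p between 0.0789 and 0.105, and on the values as deposited (0.0570) or without an intensity trend (0.0521). Nt5e passed as lower without the 2D library of mouse 2 (0.0261), with a pseudocount of 0.1 (0.0211), under a minimum mean FPKM of 1 (0.0396) and without the 2D libraries of mice 3 and 4 (0.0163), and Cd44 as lower on the values as deposited (0.0314).

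Epithelial markers moved the other way. The 12 genes of that list summed to 2723, 3123, 3183 and 2905 normalized FPKM in 3D mice 1, 4, 5 and 7, and to 31.8, 176, 694 and 31.8 in 2D mice 2, 3, 4 and 5. The keratins Krt8 or Krt18 were the most abundant in 3D and in 2D mice 3 and 4, and Krt19 in 2D mice 2 and 5. Epcam and Esrp1 were at or near 0 in every 2D library, and Cdh1 was at 0.0445, 0.379, 0.716 and 0 in 2D mice 2, 3, 4 and 5. Of these genes 11 rose in 3D, and Krt18 did not pass (adjusted p = 0.0519 in limma) but did without the 2D library of mouse 3 (0.0391) or 4 (0.0162) and under a minimum mean FPKM of 1 (0.0335). Without the 2D libraries of mice 3 and 4 Krt18 passed at 0.000244, with a log2 difference of 8.06 against 4.89 in the main fit. With the 3D library of mouse 1 left out as well it also passed (0.000614). The call on Krt8 was lost without the 2D library of mouse 2 or 5 or any of the 3D libraries (0.0513 to 0.0621), and that on Krt19 without the 2D library of mouse 2 or 5 or the 3D library of mouse 5 or 7 (0.0513 to 0.0518) and on the values as deposited (0.0567). The 4 regulators with higher values in 3D were thus higher in the libraries with high epithelial markers, and the part of those cells in the result was not tested.

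Since gonadal fat lies beside the testis and its ducts, lists for those tissues and for blood were read in the same libraries. The 14 genes of epididymis and efferent ducts summed to 40.6, 53.3, 72.2 and 63.1 in 3D mice 1, 4, 5 and 7 and to 0.698, 0.334, 0.399 and 0.984 in 2D mice 2, 3, 4 and 5. Pax8, a factor of urogenital epithelia, was the most abundant in 3D and Rnase10 in 2D, and Pax2, Pax8 and Aqp9 rose, whereas the epididymal genes Lcn5, Lcn9, Defb42, Spink13, Adam7 and Ovch2 were at 0 in all 8 libraries. Crisp1 was at 3.59, 0.394 and 0.106 in 3D mice 1, 5 and 7 and at 0.117 in 2D mouse 4. Cst8 was at 0.0902 and 0.117 in 3D mice 1 and 4, and Lcn8 at 0.144 in 3D mouse 5. Crisp1, Cst8 and Lcn8 did not pass. Rnase10 passed as lower without the 3D library of mouse 1 (0.0222) and without the 2D libraries of mice 3 and 4 (0.0380). The 10 germ cell genes summed to 0.355, 0.985, 5.33 and 0.452 in 2D mice 2, 3, 4 and 5 and to 2.69, 1.56, 1.63 and 3.07 in 3D mice 1, 4, 5 and 7, with Sycp3 or Ddx4 the most abundant. Sycp3 rose, and Tnp1 and Acrv1 were at 0 in every library. Zpbp passed without the 3D library of mouse 4 (0.0166) or 5 (0.0495) and with a pseudocount of 0.1 (0.0238), and Ddx4 passed as higher in 3D without the 2D libraries of mice 3 and 4 and the 3D library of mouse 1 (0.00210). The 8 blood cell genes summed to 6.25, 42.3, 17.5 and 12.2 in 3D mice 1, 4, 5 and 7 and to 3.20, 3.32, 4.57 and 1.57 in 2D mice 2, 3, 4 and 5. Cd68 was the most abundant of them in every library and rose. Csf1r, a receptor of macrophages, was at 0.264, 5.97, 7.65 and 3.40 in 3D mice 1, 4, 5 and 7 and at 0.895, 0.486, 1.44 and 0.647 in 2D mice 2, 3, 4 and 5, and did not pass (adjusted p = 0.129). Csf1r passed without the 3D library of mouse 1 (0.00272), also with the 2D libraries of mice 3 and 4 left out as well (0.00894). Like Csf1r, Cd68 was lowest in mouse 1 within 3D, at 5.98. Adgre1 and Itgam did not go with these genes. Adgre1 was at 0 in 3D and at up to 0.476 in 2D, and did not pass. Itgam was at most 0.0317 in 3D and at up to 0.519 in 2D, and did not pass either. The leukocyte marker Ptprc stayed at or below 0.0779, and Cd3e was at 0. The part of any of these cells in the results was not tested.

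**Figure D2:**
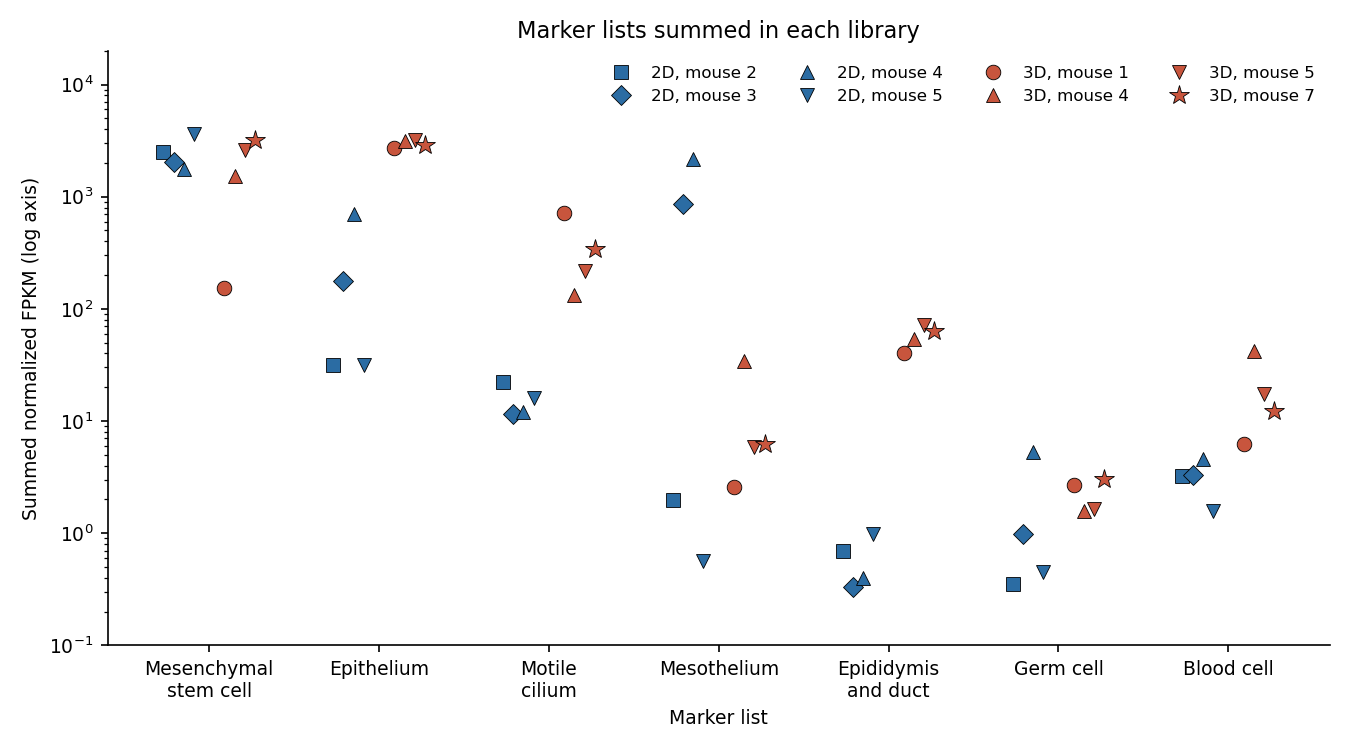
Summed normalized FPKM of the 6 marker lists and of the motile cilium genes in each library, on a log axis, with 2D libraries in blue, 3D libraries in red and a marker shape for each mouse. Epithelial sums lie between 2723 and 3183 in 3D, and mesothelial sums reach 854 and 2148 in the 2D libraries of mice 3 and 4.

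Promoter sequences are shown for the RFX members, which were higher in 3D, and for the centriole regulators Ccno and Deup1, whose groups overlapped, with letters of the X-box, the motif that RFX factors bind. Rfx2, Ccno and Deup1 each hold an X-box match, and Rfx3 holds its single arm alone. Mcidas and a promoter of Trp73 also hold the arm and are not shown, and a further promoter of Deup1 holds no match. The sequences are RefSeq sequences of build GRCm38.p6, each 300 bases long, with 250 bases before and 50 after the transcription start, read 5′ to 3′ on the gene's strand. A RefSeq promoter was found for 9 of the 10 members, and Foxj1 was missing. Capitals mark matches on either strand to the X-box, searched as GTNNCC followed by any 2 bases and GGNNAC, or to its single arm GTTGCC.
Rfx2, chr17:56830959-56831258, minus strand: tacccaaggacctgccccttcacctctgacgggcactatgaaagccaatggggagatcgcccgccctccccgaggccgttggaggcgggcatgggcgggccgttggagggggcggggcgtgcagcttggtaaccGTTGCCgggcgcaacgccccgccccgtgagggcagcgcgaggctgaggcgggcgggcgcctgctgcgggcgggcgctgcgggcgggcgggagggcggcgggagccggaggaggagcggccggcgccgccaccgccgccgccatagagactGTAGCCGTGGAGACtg
Rfx3, chr19:28011117-28011416, minus strand: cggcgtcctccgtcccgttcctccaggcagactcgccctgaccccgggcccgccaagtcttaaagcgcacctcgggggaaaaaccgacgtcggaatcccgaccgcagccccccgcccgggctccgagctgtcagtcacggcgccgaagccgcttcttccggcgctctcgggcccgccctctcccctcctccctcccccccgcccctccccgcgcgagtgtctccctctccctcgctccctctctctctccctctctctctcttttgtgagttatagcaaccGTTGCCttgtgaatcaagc
Ccno, chr13:112987552-112987851, plus strand: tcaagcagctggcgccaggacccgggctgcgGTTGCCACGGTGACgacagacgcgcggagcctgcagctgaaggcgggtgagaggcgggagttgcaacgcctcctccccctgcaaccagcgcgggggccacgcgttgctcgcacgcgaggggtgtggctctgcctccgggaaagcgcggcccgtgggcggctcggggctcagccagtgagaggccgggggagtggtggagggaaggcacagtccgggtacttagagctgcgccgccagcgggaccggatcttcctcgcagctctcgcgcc
Deup1, chr9:15627797-15628096, minus strand: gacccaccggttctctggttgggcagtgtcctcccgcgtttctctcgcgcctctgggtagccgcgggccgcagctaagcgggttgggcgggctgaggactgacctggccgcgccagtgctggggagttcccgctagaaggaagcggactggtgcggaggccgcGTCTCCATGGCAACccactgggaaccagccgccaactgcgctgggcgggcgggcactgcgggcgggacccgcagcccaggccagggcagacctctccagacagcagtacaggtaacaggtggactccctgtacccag

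The X-box letters were settled after the members' promoters had been seen, and the matches are a description of letters only. The X-box as searched occurred in 3 of 12 promoters of the 9 members (25.0%), in 5 of 36 promoters of motile cilium genes (13.9%) and in 1.88% of all 32851 promoters. Another form, looked at first, GTNNCC with any 3 bases and then GNAAC, occurred in 2 of 12, in 6 of 36 and in 2.17%. The single arm, which can overlap an X-box match, occurred in 6 of 12 member promoters, in 17 of 36 (47.2%) and in 12.5% of all. Letters of other factor families were as follows: the forkhead motif TGTTTAC stood in 1 of 12 member promoters against 3.65% of all, the MYB motif CAACTG in 3 of 12 against 13.7%, and the E2F motif TTCCCGC in 2 of 12 against 4.60%.

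Gmnc (chr16:26913553-26991652, minus strand), the earliest acting member, was listed at 0 in all 8 libraries. A count of 0 allows a level of up to 3 fragments, which would have stood at 0.0421 to 0.0514 deposited FPKM. Mcidas (chr13:112993845-113000394, plus strand), which follows Gmnc in the program, was at 0 in 7 libraries and at 0.0248 normalized FPKM, about 1.10 fragments, in the 3D library of mouse 4. At these counts no difference between the culture types was detectable for either gene.

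Mcidas lies 3067 bases beyond Ccno and 34716 bases before Cdc20b on the plus strand of chromosome 13, in a conserved cluster of multiciliogenesis genes. Cdc20b (chr13:113035111-113091195), which hosts the Mir449 genes, was at 0 in 7 libraries and at 0.0452 in the 2D library of mouse 3. Mir449a, Mir449b, Mir449c and Mir34a, Mir34b, Mir34c were listed at 0 in every library, as genes too short for such libraries to measure. Gpx8, a peroxidase gene of the endoplasmic reticulum within the span of Cdc20b but on the minus strand (chr13:113042753-113046410), was well expressed. It read 170, 115, 171 and 236 normalized FPKM in 2D mice 2, 3, 4 and 5, and 39.4, 20.4, 17.7 and 30.6 in 3D mice 1, 4, 5 and 7, with every 2D library above every 3D library. Gpx8 fell by 2.66 on the log2 scale (SE 0.30, limma adjusted p = 0.000316). Of these 8 genes near Mcidas or of the Mir34 family, which lies on other chromosomes, 2 were thus above 0 and tested, and 1 was lower in 3D. With mouse as a block, which leaves 1 residual degree of freedom, limma called 0 of the 18862 genes, Gpx8 included, with 5216 at an unadjusted p under 0.05.

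Geminin family proteins act through E2F4 or E2F5 with DP partners, and of the E2F genes E2f5 passed and E2f4 did not. E2f5 was at 7.41, 4.95, 5.11 and 7.52 normalized FPKM in 2D mice 2, 3, 4 and 5, and at 21.2, 21.6, 19.3 and 18.2 in 3D mice 1, 4, 5 and 7. All 3D libraries were above all 2D libraries, and E2f5 rose by 1.56 on the log2 scale (SE 0.15, limma adjusted p = 0.000162). E2f4 was at 31.3, 24.5, 22.1 and 31.0 in 2D and 15.9, 20.6, 24.1 and 18.9 in 3D, with overlapping groups. It did not pass (log2 difference -0.43, adjusted p = 0.0615), though it did without the 2D library of mouse 4 (0.0373), without the 3D library of mouse 5 (0.0408), on the values as deposited (0.0248), under a minimum mean FPKM of 1 (0.0495) and without the 2D libraries of mice 3 and 4 (0.0275), also with the 3D library of mouse 1 left out as well (0.0221). Gmnn, the geminin gene itself and an inhibitor of both partners and of DNA re-replication, was at 13.5, 9.19, 10.4 and 17.5 in 2D and 6.22, 5.69, 4.07 and 3.80 in 3D, without overlap. Gmnn fell by 1.18 on the log2 scale (SE 0.23, adjusted p = 0.00454). The DP partner Tfdp1 fell by 0.47 (adjusted p = 0.0142), or by 0.84 on the values as deposited, and Tfdp2 had a difference of -1.20 that did not pass (0.0505). Tfdp2 did pass without the 2D library of mouse 2 (0.0283), without the 3D library of mouse 1 (0.0347), with a pseudocount of 0.1 (0.0391) under a minimum mean FPKM of 1 (0.0312) and without the 2D libraries of mice 3 and 4 and the 3D library of mouse 1 (0.0495).

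Trp73 (chr4:154056253-154140208, minus strand), a p53 relative that acts between the geminin regulators and Foxj1, was read in a single 3D library with any depth. It was at 0.472 normalized FPKM in 3D mouse 1 (about 51.8 fragments), 0.0398 in mouse 7 and 0 in mice 4 and 5, and in 2D at 0.00279 in mouse 4 and 0 in the others. The groups overlapped, and the log2 difference of 0.15 became 0.02 without the 3D library of mouse 1, -0.002 with mouse as a block and 0.74 with a pseudocount of 0.1. Its relative Trp63, a factor of basal epithelial cells, was at 131, 7.01, 0.266 and 0.886 in 3D mice 1, 4, 5 and 7, and at or below 0.0447 in 2D. Mouse 1 was thus high for both relatives, and Trp63 did not pass (log2 difference 2.80, SE 1.35, adjusted p = 0.136). With a pseudocount of 0.1 in place of 1 it did (0.0300). The difference of Trp63 was 1.37 without the 3D library of mouse 1 (adjusted p = 0.108 in limma) and 1.64 with mouse as a block. Trp53 read 67.2, 71.1, 54.9 and 54.1 in 2D and 36.4, 41.0, 49.2 and 43.5 in 3D, and fell by 0.53 on the log2 scale (SE 0.13, adjusted p = 0.0121), a call lost without the 2D libraries of mice 3 and 4 and the 3D library of mouse 1 (0.0548). Its difference was -0.91 on the values as deposited and -0.27 with mouse as a block.

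Myb (chr10:21124935-21160984, minus strand), which is active early in multiciliated precursors and also in dividing progenitors of blood, was at 0 in each 2D library. In 3D it was at 0.704 normalized FPKM in mouse 1, 0.459 in mouse 4, 0.173 in mouse 5 and 0.216 in mouse 7, about 54.1, 32.1, 9.68 and 12.04 fragments. Each 3D library was thus above each 2D library, at a low level, with a log2 difference of 0.46 (SE 0.11), or 0.33 without the 3D library of mouse 1 and 0.39 with mouse as a block, and 2.15 with a pseudocount of 0.1. No fold is given against a group listed at 0. Its relative Mybl2, which serves the cell cycle, went the other way: it was at 8.85, 2.34, 1.94 and 10.7 in 2D and 1.03, 1.68, 0.748 and 0.620 in 3D, without overlap. Mybl2 fell by 1.55 (SE 0.49, limma adjusted p = 0.0368), a call lost without the 2D library of mouse 2 (0.0875) or 5 (0.0762), without the 3D library of mouse 1 (0.0669), 4 (0.0511), 5 (0.0858) or 7 (0.0883), and on the values as deposited (0.0607). Mybl1 did not pass (log2 difference 0.06, adjusted p = 0.857).

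Ccno (chr13:112987802-112990777, plus strand), a cyclin-like protein needed for making centrioles in numbers, was at 0.545, 0.0367, 0.0190 and 0.706 normalized FPKM in 2D mice 2, 3, 4 and 5. In 3D it was at 0.0770, 0.0972, 0.0781 and 0.229 in mice 1, 4, 5 and 7. Within 2D, mice 2 and 5 were high (about 10.8 and 13.5 fragments) and mice 3 and 4 low (about 1.02 and 1.07 fragments), so the 3D values lay between them and the groups overlapped. The log2 difference was -0.21 (SE 0.18), and between -0.55 and -0.08 over the other settings. It was -0.55 without the 2D libraries of mice 3 and 4, -0.51 with a pseudocount of 0.1, -0.32 without the 2D library of mouse 3 or of mouse 4, -0.13 without that of mouse 2, -0.08 without that of mouse 5 and -0.09 on the values as deposited. Within mice 4 and 5 the difference of Ccno had opposite signs, at 0.11 and -0.66. Deup1 (chr9:15559864-15627933, minus strand), a scaffold protein of the deuterosome on which centrioles form, was at 0.0672 in 2D mouse 5 and 0 in the other 2D libraries. It was at 0.0754, 0.0170, 0.0255 and 0 in 3D mice 1, 4, 5 and 7, at most about 5.02 fragments in a library. The groups overlapped, with a log2 difference of 0.02 (SE 0.03), which lay between -0.03 and 0.16 over the other settings and was -0.004 without the 3D library of mouse 1.

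Other centriole genes moved both ways. Of 25 genes of centriole assembly and maturation, 7 rose, 5 fell and 13 did not pass in limma, with a median log2 difference of 0.11 against 0.00 over all genes. The share called was 48%, near the 41.5% of all genes, so these counts are a description only. On the values as deposited 9 rose and 3 fell, and without the 2D library of mouse 2 or 5 or the 3D library of mouse 7 there were also 3 that fell. Plk4, the kinase that starts centriole duplication, was at 11.2, 5.58, 4.58 and 14.6 normalized FPKM in 2D mice 2, 3, 4 and 5, and at 2.07, 2.62, 1.68 and 1.18 in 3D mice 1, 4, 5 and 7, without overlap. It fell by 1.69 on the log2 scale (SE 0.36, adjusted p = 0.00709). Cep120 fell by 1.24 (SE 0.12, adjusted p = 0.000145), Stil by 1.10 (SE 0.32, adjusted p = 0.0259) and Cep192 by 0.82 (SE 0.15, adjusted p = 0.00335). The call on Stil was lost without the 2D library of mouse 2 (0.0661) or 5 (0.0559), without the 3D library of mouse 1 (0.0598) or 7 (0.0698), and on the values as deposited (0.0554). Ccp110, a cap protein that is removed from centrioles before they grow a cilium, was at 3.37, 2.26, 2.04 and 3.76 in 2D and 15.5, 9.84, 13.5 and 14.6 in 3D, also without overlap. It rose by 1.91 (SE 0.21, adjusted p = 0.000272). Spice1 rose by 1.38 (SE 0.19, adjusted p = 0.000881), and Fbf1 and Cep131, proteins of the transition fibres and of centriolar satellites, by 1.23 and 1.20. Ccdc78, a deuterosome protein, read 0.190, 0.175, 0.170 and 0.128 in 2D and 2.07, 0.225, 0.213 and 0.670 in 3D, and did not pass (adjusted p = 0.186). Calls on Sass6 (lower) and Sclt1 (higher) were lost without several single libraries, with adjusted p of 0.0613 to 0.0900 and of 0.0696 to 0.0798. Sass6 also lost its call on the values as deposited (0.164). Sclt1 lost its call without the 2D libraries of mice 3 and 4 (0.162), also with the 3D library of mouse 1 left out as well (0.112). Cep97, Ninl and Poc1b as higher and Nek2 and Poc1a as lower passed in some other settings. With mouse as a block limma called 0 of the 25, with 6 at an unadjusted p under 0.05.

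Several kinases and cyclins of the cell cycle also act in centriole number control. They were read in a list of 13 cell cycle genes, which also holds Cdc20, Fbxo5 and the inhibitors Cdkn1a and Cdkn1b. Of the 13 genes 10 fell, 0 rose in limma and 3 (Cdk2, Wee1, Cdkn1b) did not pass. The inhibitor Cdkn1a was among those that fell (log2 difference -0.76, adjusted p = 0.00871). In all 11 had an unadjusted p under 0.05, and the median log2 difference was -1.81. Those called made up 76.9% of the list, against 41.5% of all genes. Without the 2D library of mouse 3 there was 1 that rose, Cdkn1b (adjusted p = 0.0457), and Wee1 passed as lower (0.0323), as it did without the 2D libraries of mice 3 and 4 (0.0250), also with the 3D library of mouse 1 left out (0.0379). Ccne1, a cyclin of the G1 to S transition, was at 25.2, 10.8, 10.04 and 26.3 normalized FPKM in 2D mice 2, 3, 4 and 5, and at 1.60, 3.28, 1.57 and 1.38 in 3D mice 1, 4, 5 and 7. Its groups did not overlap, and within 2D the libraries of mice 2 and 5 were the high ones, as for Ccno, Plk4 and Mybl2. Ccne1 fell by 2.61 on the log2 scale (SE 0.37, adjusted p = 0.00107), Aurka by 2.24 (SE 0.46, 0.00597), Ccnb1 by 2.11 (SE 0.52, 0.0139) and Cdc20 by 2.09 (SE 0.50, 0.0123). The block of mouse left 0 of the 13 called and 0 at an unadjusted p under 0.05 in limma.

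Foxj1 (chr11:116330704-116335399, minus strand), the forkhead factor of motile cilia, was at 0.0773, 0.0779, 0.0968 and 0.264 normalized FPKM in 2D mice 2, 3, 4 and 5. In 3D it was at 353, 107, 147 and 194 in mice 1, 4, 5 and 7. Each 3D library lay far above each 2D library, where the gene rested on about 2.11 to 7.13 fragments. The log2 difference was 7.34 (SE 0.33), or 7.07 without the 3D library of mouse 1 and 6.75 with mouse as a block. Within mouse 4 the difference between the 3D and the 2D library was 6.62, and within mouse 5 it was 6.87. The difference takes log2 of FPKM plus 1, which understates folds of genes near 0, and a pseudocount of 0.1 gave 9.70.

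Rfx2 (chr17:56775897-56831013, minus strand), which works beside Foxj1 at ciliary promoters, was at 0.267, 0.286, 0.122 and 0.119 in 2D mice 2, 3, 4 and 5, and at 10.4, 3.72, 4.93 and 7.63 in 3D mice 1, 4, 5 and 7. The groups did not overlap, and the mean in 3D was 33.6 times that in 2D. The log2 difference was 2.60 (SE 0.27), 2.38 without the 3D library of mouse 1 and 2.24 with mouse as a block, and 4.45 with a pseudocount of 0.1. Within mice 4 and 5 it was 2.07 and 2.41.

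Rfx3 (chr19:27761721-28011166, minus strand), which serves primary as well as motile cilia, was the member with the highest level in 2D. It was at 1.10, 1.54, 1.14 and 1.22 in 2D mice 2, 3, 4 and 5, and at 15.7, 4.39, 4.26 and 7.34 in 3D mice 1, 4, 5 and 7. All 3D libraries were above all 2D libraries, with mouse 1 at 2.94 times the mean of the other 3D libraries, and the mean in 3D was 6.33 times that in 2D. The log2 difference was 1.82 (SE 0.37), 1.48 without the 3D library of mouse 1 and 1.29 with mouse as a block. Within mice 4 and 5 it was 1.33 and 1.25.

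Foxn4 (chr5:114254164-114273807, minus strand), a forkhead factor of multiciliated cells in frog skin, was listed at 0 in all 8 libraries, where 3 fragments would have stood at 0.0570 to 0.0696 deposited FPKM. Some members share their span with genes annotated on the opposite strand: Deup1 with 4930540M03Rik, Trp73 with Trp73os and Gm26036, Myb with Gm26577, and Rfx3 with Gm8412 and Gm20407. The strand setting used in counting is not stated, so fragments of these members and of their antisense partners cannot be told apart.

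Levels per length can be set beside each other within a library, though quantile normalization keeps the order of genes and not their ratios. The normalized level of Foxj1 divided by that of Rfx2 was 33.9, 28.8, 29.9 and 25.5 in 3D mice 1, 4, 5 and 7. As deposited, Foxj1 was at 289, 86.7, 115 and 153 FPKM in these libraries, and Rfx2 at 10.8, 4.06, 5.41 and 8.01. In 2D mice 2, 3, 4 and 5 the normalized ratio was 0.290, 0.273, 0.791 and 2.22. The 2D ratios are rough, since they rest on about 2.11 to 7.13 fragments of Foxj1 and 4.01 to 13.7 of Rfx2. In 3D the order in every library ran from Foxj1 down to the RFX members, whose levels were close: Rfx3 over Rfx2 was 1.51, 1.18, 0.865 and 0.963 in mice 1, 4, 5 and 7. In 2D Rfx3 stood above Rfx2 in each library, by 4.14, 5.39, 9.34 and 10.2 times in mice 2, 3, 4 and 5. The means of Rfx2 and Rfx3 in 3D, 6.67 ± 2.97 and 7.92 ± 5.36, did not differ beyond their spread.

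The genes with the most similar values over the 8 libraries, by root mean square difference of log2 values, were named for the 3 members with a mean of at least 1 in a culture type. For Foxj1 they were Cldn2 (0.22), Plekhs1 (0.34) and Cadm1 (0.42). Rfx2 was closest to Ccdc30 (0.16), Fank1 (0.16) and Eno4 (0.19). For Rfx3 they were Chic1 (0.29), Stk36 (0.32) and Cdc14a (0.33).

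Relatives of the members moved in both directions. Over all 21 paralogs and partners 20 were tested, 3 rose (E2f5, Rfx5, Rfx7), 6 fell (Gmnn, Tfdp1, Trp53, Mybl2, Foxn2, Foxn3) and 11 did not pass, with a median log2 difference of 0.02. The share called was 45%, near the 41.5% of all genes, so these counts are a description only. On the values as deposited 6 rose and 6 fell, the further ones being Rfx1, Rfxank and Rfxap among those higher and E2f4 in place of Mybl2 among those lower. Without the 3D library of mouse 1 there were 5 that rose, with Rfx1 (0.0344) and Rfxank (0.0319) among them, and without an intensity trend or under a minimum mean FPKM of 1 there were also 5. Rfx5, a regulator of MHC class II genes, rose by 0.74 on the log2 scale (SE 0.14, limma adjusted p = 0.00388), from 6.17 ± 1.23 to 10.9 ± 0.654 normalized FPKM. Rfx7 rose by 0.52 (SE 0.16, adjusted p = 0.0366) with groups that overlapped, and its call was lost without the 2D library of mouse 2 (0.0904), 4 (0.0818) or 5 (0.0888) or the 3D library of mouse 4 (0.0875) or 5 (0.0951). Rfx1 did not pass (0.43, adjusted p = 0.0569). Rfx6 was at 0 in every library, and Rfx4 and Rfx8 were near 0. Foxn2 was at 15.1, 10.6, 9.17 and 15.4 in 2D mice 2, 3, 4 and 5 and at 4.92, 4.49, 5.40 and 6.13 in 3D mice 1, 4, 5 and 7, without overlap, and fell by 1.10 (SE 0.19, adjusted p = 0.00256). Foxn3 fell by 0.62 (SE 0.19, adjusted p = 0.0322), a call lost without the 2D library of mouse 2 (0.0682), 3 (0.0764) or 5 (0.0743) or the 3D library of mouse 5 (0.0516) or 7 (0.0683), or without the 2D libraries of mice 3 and 4 (0.0936). With mouse as a block limma called 0 of the 20 genes, with 4 at an unadjusted p under 0.05.

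Genes of the motile cilium itself were higher in 3D wherever they passed. Of 34 such genes 33 were tested, 19 rose, 0 fell in limma and 14 did not pass, with a median log2 difference of 1.61, and 25 had every 3D library above every 2D library. Those called made up 57.6% of the tested genes, against 41.5% of all genes. At an unadjusted p under 0.05 there were 22. Cfap126, an organizer of basal bodies and axonemes, was at 0.948, 2.21, 0.880 and 0.671 normalized FPKM in 2D mice 2, 3, 4 and 5, and at 124, 25.4, 46.7 and 79.0 in 3D mice 1, 4, 5 and 7. Its groups did not overlap and it rose by 4.82 on the log2 scale (SE 0.47, adjusted p = 0.000164). Pifo, a gene of the ciliary base, was at 0 in 2D and at 53.3, 12.04, 15.3 and 32.6 in 3D, and rose by 4.64 (SE 0.43, adjusted p = 0.000130). Cfap44 rose by 4.38 (SE 0.53, adjusted p = 0.000478). Rsph1, a radial spoke protein, was at 0.482, 0.133, 0 and 0.289 in 2D and 33.2, 10.9, 14.8 and 25.2 in 3D, and rose by 4.06 (SE 0.34, adjusted p = 7.6e-05).

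Among the 14 motile cilium genes that did not pass, Dnah7a, Dnai1, Spag17, Hydin, Cfap43 and Tctex1d4 had every 3D library above every 2D library, and these 6 passed with a pseudocount of 0.1. Hydin, a protein of the central apparatus, was at 3.12, 0.2003, 0.362 and 0.527 in 3D mice 1, 4, 5 and 7 and at most 0.0205 in 2D (adjusted p = 0.104), and passed without the 3D library of mouse 1 (0.00488), as did Cfap43 (0.0185), Dnah7a (0.0319) and Tctex1d4 (0.0269). Spag17 passed without the 3D library of mouse 4 (0.0423). Dnah5, an outer arm dynein, and Ak7 stayed near 0 in all libraries, at most 0.0489 and 0.0624, and Sntn, listed at 0 in each, was not tested. Dnah9, another outer arm dynein, was at 11.2 in 3D mouse 1 and at 0.0215, 0.0493 and 0.239 in mice 4, 5 and 7, against at most 0.0232 in 2D. Its level in mouse 1 was 108 times the mean of the other 3D libraries, and the adjusted p was 0.347. Tekt2 read higher in 2D than in 3D on average, with a log2 difference of -0.41 and an adjusted p of 0.144. These genes were named after their values were seen. Calls on Drc1, Dynlrb2, Lrrc23 and Tekt1 were each lost when any 1 of the 2D libraries was left out, with adjusted p between 0.0503 and 0.0678. The call on Drc1 was also lost without the 3D library of mouse 5, that on Tekt1 without that of mouse 7, and that on Lrrc23 without that of mouse 1, 5 or 7 (0.0635 to 0.0807). Without the 2D libraries of mice 3 and 4 the list had 14 genes higher in 3D. Without the 3D library of mouse 7 limma called 17 motile cilium genes higher and 1, Tekt2, lower (adjusted p = 0.0349), and with mouse as a block 0, with 19 at an unadjusted p under 0.05.

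Summed over the 34 genes, motile cilium transcripts stood at 721, 132, 219 and 343 normalized FPKM in 3D mice 1, 4, 5 and 7, and at 22.3, 11.5, 12.1 and 16.2 in 2D mice 2, 3, 4 and 5. At 1 normalized FPKM or more were 27, 19, 20 and 24 of the genes in 3D mice 1, 4, 5 and 7, against 3, 5, 5 and 2 in 2D mice 2, 3, 4 and 5.

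Within 3D the libraries differed in the level of these genes. The highest library was 3.29 times the lowest for Foxj1, 2.80 for Rfx2, 3.68 for Rfx3 and 4.08 for Myb, and 5.47 for the motile cilium sum. Single motile cilium genes above 0 in all 3D libraries had a median ratio of 7.63, against 1.58 for epithelial genes (1.19 to 2.37) and 2.46 for cell cycle genes (1.26 to 4.98), so some cell cycle genes spread as widely as the members. Foxj1 and Rfx2 had the same order of 3D libraries, mouse 1 above 7 above 5 above 4. That order was taken from Foxj1 after its values were seen, so what follows is a description. The order was shared by 25 of 33 motile cilium genes (75.8%), by 427 of the 4000 genes higher in 3D (10.7%), and by 1066 of the 17592 genes above 0 in 3D (6.06%). Mouse 1 held the highest 3D value of 29 of the 33 (87.9%) and of 6 of the 8 members, against 28.6% of all genes above 0 in 3D. Estimated depth was 14.35, 15.65, 14.3 and 16.05 M fragments in mice 1, 7, 5 and 4. The highest deposited FPKM of any gene was 419827, 177470, 151652 and 154817 in these libraries. The part of such library differences in the order was not tested.

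**Figure D3:**
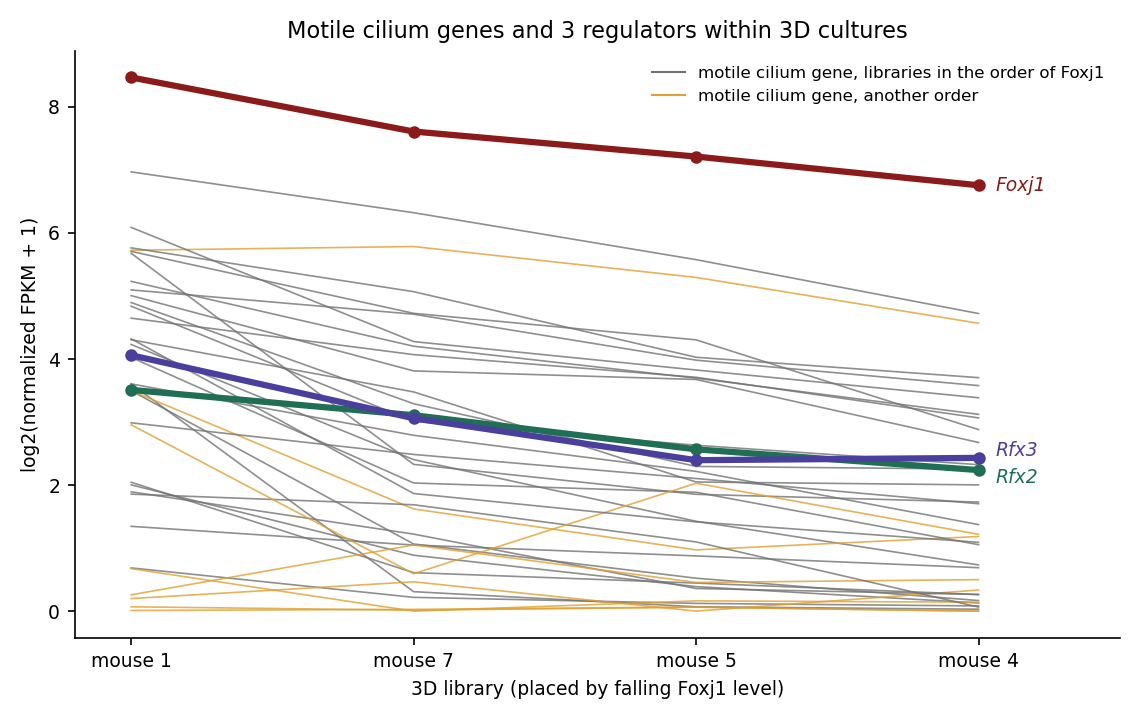
Level as log2(normalized FPKM + 1) of Foxj1, Rfx2 and Rfx3 (thick lines) and of 33 motile cilium genes (thin lines) in the 4 libraries of 3D cultures, placed by falling Foxj1 level. Grey lines are the 25 motile cilium genes with the order of Foxj1, and yellow lines those with another order.

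Notch signalling restrains the choice of the multiciliated fate, and its genes were mostly higher in 3D. Of 13 ligands, receptors and targets 12 were tested, 8 rose, 1 fell and 3 (Notch2, Hey2, Heyl) did not pass in limma, with a median log2 difference of 1.20, and Hes5 was at 0 in every library. Those called made up 75% of the tested genes, against 41.5% of all genes. On the values as deposited 7 rose and 2 fell, and without the 2D libraries of mice 3 and 4 the counts were 5 and 2. The further gene that fell was Hey2, which also passed without the 2D library of mouse 3 (0.0491) or 4 (0.0150) and with a pseudocount of 0.1 (0.0266). Hes1 lost its call on the values as deposited (0.142), without the 2D library of mouse 3 (0.0501) and without the 3D library of mouse 5 (0.0508). Without the 2D libraries of mice 3 and 4, Hes1, Dll4 and Jag2 lost theirs, Hes1 and Dll4 also with the 3D library of mouse 1 left out. Notch2 passed as higher without the 2D library of mouse 3 (0.0348) and without the 2D libraries of mice 3 and 4 and the 3D library of mouse 1 (0.0425). The receptor Notch1 was at 2.94, 0.970, 0.862 and 2.82 normalized FPKM in 2D mice 2, 3, 4 and 5, and at 80.2, 71.1, 47.9 and 37.8 in 3D mice 1, 4, 5 and 7. The groups did not overlap, and Notch1 rose by 4.40 on the log2 scale (SE 0.35, adjusted p = 5.67e-05). The ligand Dll1, which precursors of multiciliated cells display, was at 0.0849, 0.155, 0.306 and 0.0592 in 2D and 6.12, 6.05, 9.88 and 8.29 in 3D. It rose by 2.88 (SE 0.18, adjusted p = 1.93e-05), again without overlap. Jag2 rose by 2.30 (SE 0.53, adjusted p = 0.00981), a call lost without the 2D libraries of mice 3 and 4 (0.0521), and Notch3 rose by 2.12 (SE 0.30, adjusted p = 0.000948). Notch4, a receptor of endothelial cells, fell by 1.71 (SE 0.32, adjusted p = 0.00399), from 4.23, 1.07, 1.96 and 4.88 in 2D to 0.106, 0.135, 0.126 and 0.149 in 3D. The block of mouse left 0 of the 12 called in limma, with 7 at an unadjusted p under 0.05. The 3D order of libraries seen in Foxj1 was held by 0 of the 12 Notch genes.

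**Figure D4:**
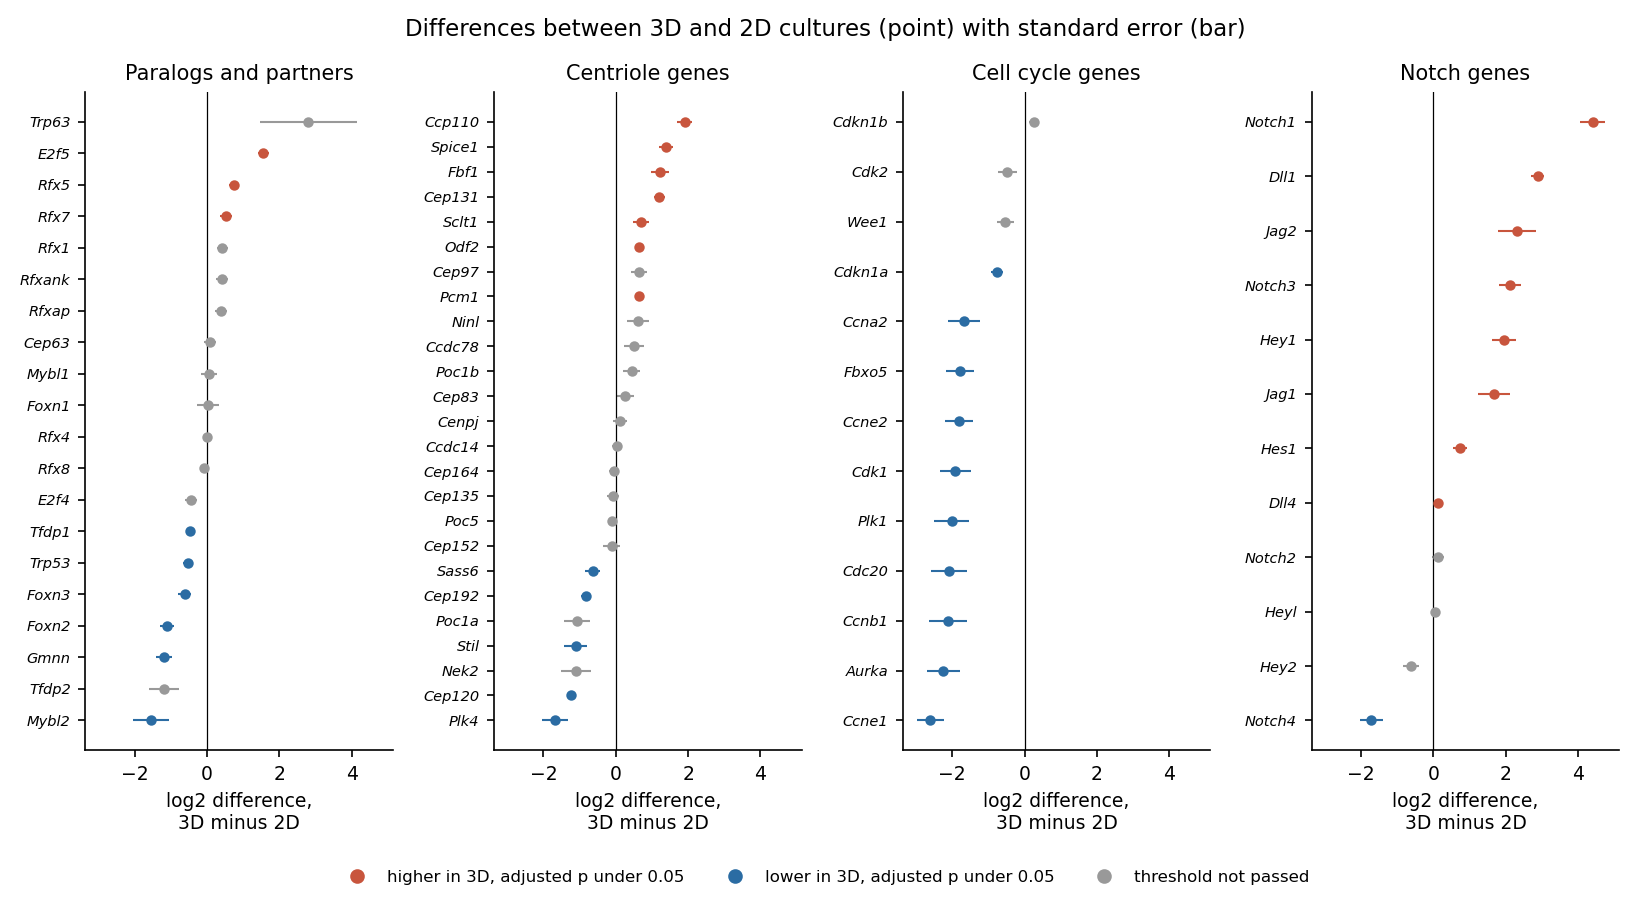
Log2 difference between 3D and 2D of each tested gene (points, bars for the standard error) in 4 panels, for paralogs and partners, centriole, cell cycle and Notch genes, with genes that passed limma as higher in red, as lower in blue and the others in grey. Cell cycle genes reach down to -2.61 (Ccne1) and Notch genes up to 4.40 (Notch1).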

How the data were processed

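RNA of 8 ADSC cultures was sequenced as directional paired-end libraries after removal of ribosomal RNA. The authors trimmed reads, mapped them with TopHat to mm10 and deposited FPKM from Cufflinks, 1 library per mouse and culture type, without counts. The members and lists were chosen with earlier results of these data known. Deposited FPKM were quantile normalized, and log2(FPKM + 1) was compared between 3D and 2D by limma 3.58.1 (R 4.3.3) with an intensity trend. The Benjamini-Hochberg adjustment ran over 18862 genes, and 5484 genes at 0 in every library were left out. Levels are normalized FPKM. From each list the text names up to 4 genes called in each direction with the largest log2 difference, all relatives needed for a family, and for each well expressed member the 3 genes nearest in value. Depth was estimated from the steps of FPKM in 875 genes with 1 transcript of at least 3000 bases (tolerance 0.2 of a step). A criterion on the first step was set after a doubled estimate had been seen in some libraries. Coordinates are from GENCODE M21, which held 95.8% of the listed genes. Mice 4 and 5 pair the culture types by the labels, and their same-mouse deviations had correlations of -0.05 and -0.11 over 12583 genes. The procedure was tested on simulated data. Alternatives were values as deposited, no trend, a pseudocount of 0.1, a minimum mean FPKM of 1, mouse as a block or random effect, leaving out each library, and, chosen after seeing the data, leaving out the 2D libraries of mice 3 and 4 with or without the 3D library of mouse 1.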

Additional observations from a re-analysis of the deposited data

Results flagged for a closer look

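In groups of 4 libraries, a library was singled out where its gap to the nearest other took up a larger share of the group's range than Dixon's critical value. Of 88 groups screened, those of the members and of the list genes taken by the naming rule, 8 met this (9.09%). Chance gives about 1 in 20 for normally distributed values. The screen used untransformed levels, which need not be so distributed, so the share cannot be set against that rate. Groups whose highest value was under 0.1 were not screened, a minimum chosen after seeing the values. Among the members, Foxj1 was at 0.264 normalized FPKM in 2D mouse 5, against 0.0773 to 0.0968 in the other 2D libraries. Ccno was at 0.229 in 3D mouse 7, against 0.0770 to 0.0972. Trp73 was at 0.472 in 3D mouse 1, against 0 to 0.0398. Among relatives and partners, Trp63 was at 131 in 3D mouse 1 (0.266 to 7.01 in the others), Tfdp1 at 45.4 in 3D mouse 4 (38.1 to 39.1), Mybl1 at 4.86 in 2D mouse 5 (4.11 to 4.19) and Rfx7 at 16.1 in 2D mouse 3 (10.2 to 10.6). Ccne1 was at 3.28 in 3D mouse 4, against 1.38 to 1.60. The 3D library of mouse 1 gave 2 of the 8. Over the tested genes of all lists, markers included, 41 of 265 groups met the criterion (15.5%), 17 of them through the 3D library of mouse 1 and 8 through the 2D library of mouse 4. On the values as deposited 3 of the 8 (Trp73, Trp63, Rfx7) were past the critical value and 5 were not. Foxj1 was then at 0.170 FPKM, about 7.13 fragments, against 0.0482 to 0.115, and Ccno at 0.220, about 6.45 fragments, against 0.0790 to 0.118.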

How the results depend on the processing

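The 8 members above 0 and 43 list genes taken by the naming rule, without the marker lists, had 802 log2 differences under up to 16 other settings. Of these 18 changed sign, in 7 genes (Cep63, Deup1, Foxn1, Mybl1, Rfx4, Rfx8, Trp73) whose main differences were at most 0.15 in size. None of the 43 did so in a fit where it passed limma's threshold. Among all genes of the lists, Msln, Lrrn4 and Ddx4 passed with the other sign when the 2D libraries of mice 3 and 4, or these and the 3D library of mouse 1, were left out (log2 differences of 3.16, 0.08 and 0.60 against -1.78, -2.44 and -0.31). For the 43 list genes, 602 of 680 values kept their side of the threshold, 56 no longer passed (25 of them outside the block) and 22 newly passed. Members were given no p-value, and 112 of their 122 values moved by less than the spread between libraries. With mouse as a block, 1 residual degree of freedom was left, and limma called 0 genes higher and 0 lower in 3D (5216 at an unadjusted p under 0.05). The block left 0 paralogs and partners, 0 centriole, 0 motile cilium, 0 cell cycle and 0 Notch genes called. Mouse as a random effect gave 3948 higher and 3779 lower. Leaving out 1 library at a time gave 3393 to 4051 genes higher and 3204 to 3835 lower. Those fits called 6 to 11 paralogs and partners, 9 to 13 centriole, 15 to 22 motile cilium, 10 to 12 cell cycle and 8 to 10 Notch genes. The other settings kept each total within 1.5 times its value, though not always the same genes. Counts in 1 direction moved by more in places for paralogs and partners, centriole, motile cilium, cell cycle and Notch genes. With the 2D libraries of mice 3 and 4 left out, with or without the 3D library of mouse 1, the count of members past limma's threshold went from 4 higher and 0 lower to 3 higher and 1 lower (Ccno). Over all genes, limma called 3560 higher and 4206 lower of 18428 in the first of these fits. In the fit without the 3D library of mouse 1 as well, it called 4047 and 4269 of 18112. The 2D libraries left out were those where Ccno was low, at about 1.02 and 1.07 fragments. The count of members is a description like their other values, and nothing is read from it. Genes absent after a filter or a left-out library have no value there. Depth limits the low members: at 14.3 to 17.45 M fragments Gmnc and Foxn4, and Mcidas in the libraries where it was at 0, could lie at up to 3 fragments.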
